A study of Cricetulus griseus with 27 samples.

Results

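cgr-miR-31-5p is the Chinese hamster entry for the 5p arm of miR-31, and it was 1 of 4815 entries in the deposited table of miRNA read counts. It was taken as the row of that name, with its values in all 9 groups of libraries already known, so its own levels and ratios are described without a test. The libraries hold small RNA of CHO-K1, an epithelial-like line cloned from Chinese hamster ovary cells and used to make recombinant proteins, and of the microparticles (MPs) and exosomes that these cells release. Each fraction was taken from 3 cultures, with 3 libraries per group and 27 in all. All cultures were shaken in ActiPro medium with 6 mM glutamine in 15 mL and were harvested on day 3. The standard culture had nothing added, the osmotic culture had 60 mM NaCl from the start (120 mOsm/L more), and the ammonia culture had 9 mM NH4Cl from the start. The labels call the replicates biological and do not say whether they came from separate cultures, so every p-value here measures the spread between these libraries, which may be partly technical. A kit that takes miRNA along with mRNA gave the 9 standard libraries, sequenced as 1 pool, and a small RNA kit gave the 18 stressed ones, sequenced as another. A stressed culture therefore cannot be told apart from its kit and pool when set beside the standard culture, and those levels are given side by side with no ratio.

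A miRNA guides an Argonaute protein to messenger RNAs that pair with its seed, the bases near its 5′ end, and lowers their translation and stability. miR-31 is known from human breast cancer cells as a miRNA that restrains invasion and metastasis through targets that include the small GTPase RHOA and the integrin subunit ITGA5, and in human and mouse lung tumours it is known to act in the other direction, on the tumour suppressor LATS2. Its 5p arm is the guide strand, and the 3p arm is the passenger strand that is mostly degraded. In the RefSeq annotation of the hamster assembly CriGri-PICRH-1.0, Mir31 lies between Mtap, an enzyme of methionine salvage, and Ifne, an interferon. An unnamed lncRNA (LOC118238309) and a pseudogene (LOC100764391) lie between it and Mtap. The human locus has the same neighbours and is often deleted in tumours.

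The table named 5 miR-31 entries, and 4 of them held counts. cgr-miR-31-5p held 36291 counts over 22 of the 27 libraries. hsa-miR-31-5p, the human-named entry for the same arm, held 6550 counts in 18 libraries. The human mature form is known as the same sequence with a shorter 3′ end, so reads of 1 hamster miRNA may have been divided between these entries, and how the counting divided them was not given in the sources used here. cgr-miR-31-3p held 129 counts in 6 libraries, hsa-miR-31-3p held 3 counts in 2, and rno-miR-31b held 0.

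Depth sets how well the miRNA could be seen in each fraction. Library totals ran from 132154 to 180764 counts in standard cells, and from 5236151 to 10374430 in the cells of both stressed cultures. MP libraries held 378397 to 2967003 counts, standard exosomes 2284857 to 2726446, and the exosomes of stressed cultures only 26516 to 203816. Levels are counts per 1000000 counts of the library (CPM), so 1 count was worth between 0.0964 and 37.7 CPM. The limit given for an empty group is the level of 3 counts over its summed total. Of 26 entries listed as markers of other cell types, 20 held counts. Their summed level without cgr-miR-486-5p, a marker of erythrocytes and serum, was 0 to 32.5 CPM in cells, 0 to 60.6 CPM in MPs and 0 to 70.1 CPM in exosomes. cgr-miR-486-5p itself was at 717 to 3055 CPM in cells, 0.906 to 3114 CPM in MPs and 13 to 9460 CPM in exosomes, and its part in the levels of miR-31 was not tested. The list for erythrocytes and serum (miR-451a and miR-486-5p) had 2 entries, and the other entry held counts in standard MPs only. In RNA of whole cells or of vesicle preparations, fewer cells or vesicles that carry a miRNA and fewer copies in each cannot be told apart.

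cgr-miR-31-5p was a miRNA of middle to upper abundance in the cells and in the standard vesicles. Its mean ranked 84 of 587 detected entries in osmotic cells, 114 of 485 in ammonia cells and 131 of 566 in standard cells. It ranked 96 of 657 in standard exosomes and 113 of 652 in standard MPs. Ranks in osmotic exosomes (121 of 243) and ammonia exosomes (97 of 226) rest on 8 counts each, and that in ammonia MPs (104 of 315) mostly on 1 library. In order of mean level, osmotic cells came first at 906 ± 457 CPM (SD, n = 3 here and below), then standard exosomes at 549 ± 208 CPM and ammonia MPs at 310.4 ± 522 CPM. Ammonia cells at 304 ± 125 CPM, standard MPs at 278 ± 51.4 CPM and standard cells at 238 ± 69.5 CPM followed. The last 3 were osmotic exosomes at 44.2 ± 66.0 CPM, ammonia exosomes at 17.1 ± 2.39 CPM and osmotic MPs at 0. Of the 8 pairs of neighbours in this order, 6 overlapped in their libraries. This order holds for CPM and turned with the scaling. With TMM over all libraries, standard exosomes (345) lay below ammonia MPs (593) and ammonia cells (401), and without let-7 entries in the totals they stood at 602 CPM against 991 and 972 CPM. Osmotic cells came first in both. The pairs that did not overlap in CPM were standard cells with osmotic exosomes, and ammonia exosomes with osmotic MPs. All 5 libraries without a count were among the 12 vesicle libraries of the stressed cultures.

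**Figure D1:**
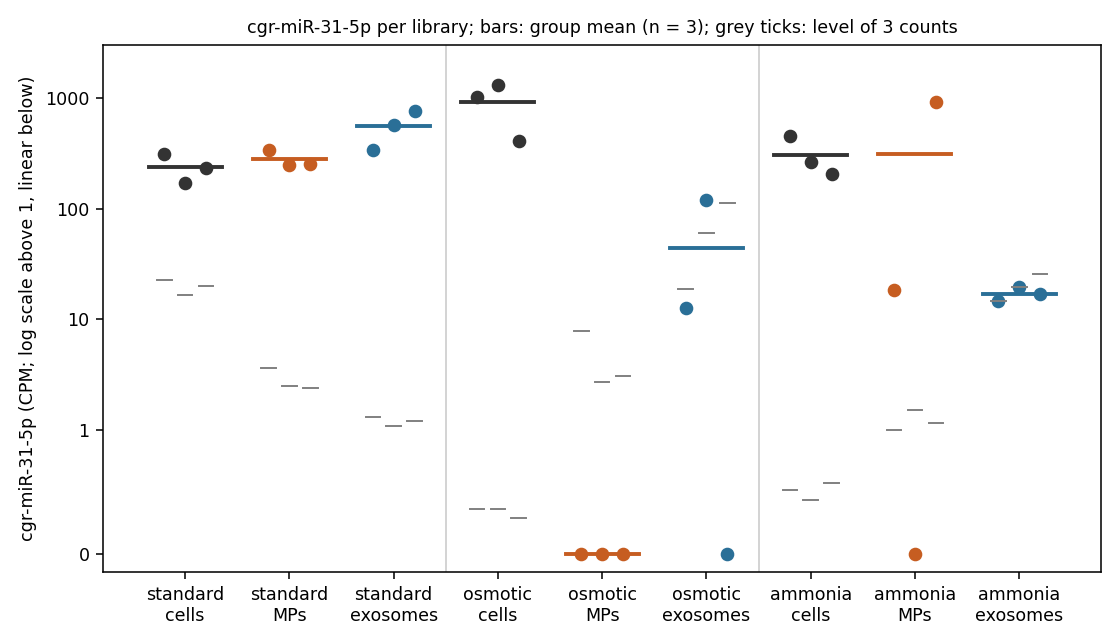
Level of cgr-miR-31-5p in CPM in each of the 27 libraries, by fraction and culture, on an axis that is logarithmic above 1 CPM and linear below. Points are libraries in replicate order, coloured bars are group means, and grey ticks mark the level of 3 counts in each library. The 3 osmotic MP libraries lie at 0 while the osmotic cells lie between 407 and 1304 CPM, and the 3 ammonia MP libraries lie far apart at 18.5, 0 and 913 CPM.

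In the standard culture, cgr-miR-31-5p was present in all 9 libraries and lay highest in exosomes. The cells gave 41, 31 and 35 counts in replicates 1 to 3, or 310.2, 171 and 232 CPM. The MPs gave 276, 293 and 316 counts, or 337, 245 and 252 CPM. The exosomes gave 763, 1543 and 1846 counts, or 334, 566 and 748 CPM. Every exosome library was above every cell library, whereas MPs overlapped with both. The mean in exosomes was 2.31-fold that in cells. In 57.0% of the 351 entries tested in the standard culture, exosomes and cells did not overlap, so a gap of this kind was common, and the rule that chose the miRNA had used it. The mean in MPs was 1.17-fold that in cells, with overlapping libraries, against 45.9% of entries that did not overlap. Exosomes stood 1.98-fold above MPs in the mean, also with overlap, since exosome replicate 1 lay below MP replicate 1. For these entries 49.3% did not overlap.

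In the osmotic culture, cgr-miR-31-5p was abundant in cells and was not counted in any MP library. The cells gave 8274, 10805 and 4219 counts, or 1007, 1304 and 407 CPM, and replicate 3 was the lowest by a wide margin although it was the deepest library. The MPs gave 0 counts in all 3 libraries. At the mean level of the cells, the MP libraries would have held 343, 1000 and 882 counts, or 2224 in all. The count of 0 allowed a pooled level of up to 1.502 CPM (95% Poisson limit, which covers counting error only). At that 95% limit the mean of the cells was 603 times the level in MPs. The limit of 3 counts, 1.22 CPM, which is lower, gave a bound of 741-fold below cells. With TMM scaling, size factors (RLE) and the authors' library sizes this bound was 403, 342 and 411, and without MP replicate 2, the deepest of the 3, it was 408. Osmotic cells and MPs did not overlap in 65.7% of the 332 entries tested in the stressed cultures. The median log2 change of these entries in MPs against cells was -7.05, and the bound for cgr-miR-31-5p was -9.53.

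Other abundant entries were at 0 in the same MPs as well. Of 216 entries that averaged at least 50 CPM in osmotic cells, 46 (21.3%) were at 0 in all 3 MP libraries and 133 (61.6%) were at 0 in at least 1. Per library, 100, 83 and 85 of the 216 were at 0. Among the 46, cgr-miR-31-5p had the highest level in osmotic cells, a place that the choice of this miRNA had used. The next was mmu-let-7a-1-3p, the passenger strand of a let-7 precursor, at 433 ± 140 CPM in osmotic cells. hsa-miR-12135 followed at 343 ± 154 CPM, rno-miR-222-3p, a partner of miR-221 known for repressing the cell cycle inhibitor CDKN1B, at 319 ± 92.7 CPM, and hsa-miR-7-5p, known for repressing EGFR, at 305 ± 195 CPM. More abundant entries named for miR-222 and miR-7 were counted in these MPs at low mean levels. These were 5.93 CPM against 1175 CPM in cells for mmu-miR-222-3p, 1.57 against 1001 CPM for cgr-miR-222-3p, and 0.604 against 1494 CPM for cgr-miR-7a. Where the entry had to average at least 200 CPM in cells, 13 of 146 (8.90%) were at 0 in all 3 MP libraries. In the standard culture, with the other kit, 0 of 202 entries of at least 50 CPM in cells were at 0 in all 3 MP libraries. In ammonia MPs 13 of 203 (6.40%) were.

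**Figure D2:**
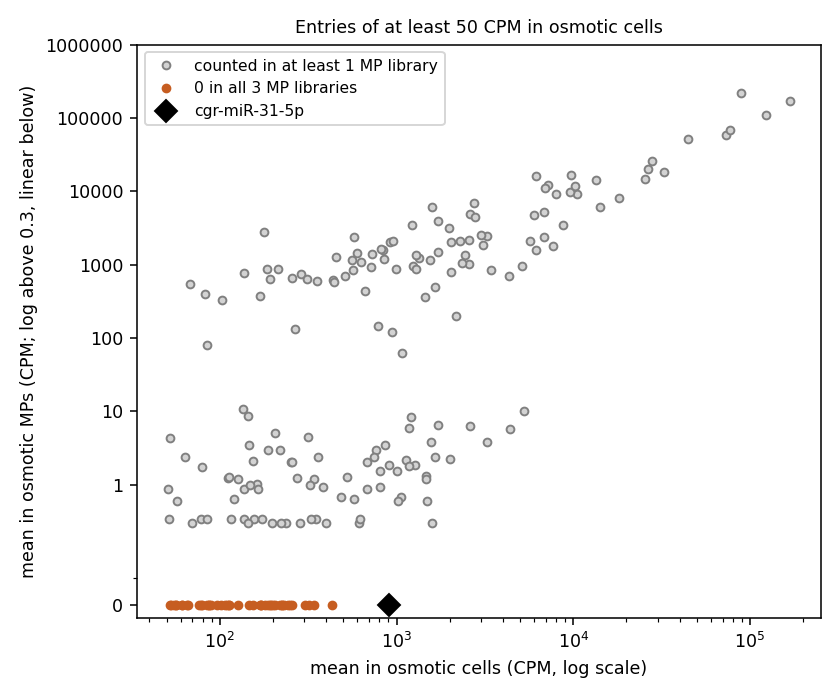
Mean level in osmotic MPs against mean level in osmotic cells, in CPM, for the 216 entries of at least 50 CPM in those cells. The horizontal axis is logarithmic and the vertical axis is logarithmic above 0.3 CPM and linear below. Grey circles were counted in at least 1 MP library, orange points are entries at 0 in all 3, and the black diamond is cgr-miR-31-5p, which lies farthest to the right of the 46 entries at 0, at 906 CPM in cells.

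Osmotic exosomes held a few counts of cgr-miR-31-5p. Replicates 1 to 3 gave 2, 6 and 0 counts, or 12.6, 120.0 and 0 CPM, where 213 would have been counted at the mean level of the cells. The 120.0 CPM of replicate 2 came from 6 counts in a library of 49988, and in replicate 3 a count of 0 allowed up to 113 CPM. All 3 exosome libraries were below all 3 cell libraries, and the mean was 20.5-fold lower than in cells. In this comparison 64.2% of entries did not overlap. The median log2 change of all entries tested was -3.75, and the log2 ratio of means of cgr-miR-31-5p was -4.36. From the pooled counts the level was 34.0 CPM (95% Poisson interval 14.7 to 67.0), and the cells' mean was 26.6 times that (13.5 to 61.7). Without exosome replicate 2 the mean was 144-fold lower than in cells, with size factors (RLE) 5.82-fold lower and with the authors' library sizes 4.90-fold lower. Against the MPs, the mean in exosomes was at least 36.2-fold higher, but exosome replicate 3 tied with the MPs at 0 and the bound was 5.15 without exosome replicate 2. For exosomes against MPs, 13.3% of entries did not overlap.

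In the ammonia culture, cells held cgr-miR-31-5p at 446, 261 and 206 CPM, from 2570, 1783 and 1080 counts. The MPs gave 55, 0 and 2345 counts, or 18.5, 0 and 913 CPM. Replicate 3 was above every ammonia cell library and the other MP libraries were below every one. Replicate 3 alone held 97.7% of the group's counts. The mean of the MPs was 1.02-fold that of the cells with replicate 3, and without it the mean was 9.27 CPM and 32.8-fold lower. The mean of the MPs also turned to lower than that of the cells with both miR-31-5p entries summed (1.31-fold) and without ammonia cells replicate 2 (1.05-fold) or 3 (1.14-fold). For ammonia MPs against cells, 41.0% of entries did not overlap. The MP libraries differed in how many other entries they held: of 203 entries of at least 50 CPM in ammonia cells, 37, 71 and 21 were at 0 in replicates 1, 2 and 3. Replicate 3 was the MP library with the fewest, and it detected 256 entries against 237 and 196. Its total of 2569616 counts lay between those of the other MP libraries. The part of this difference in the level of cgr-miR-31-5p was not tested.

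Ammonia exosomes held 3, 3 and 2 counts of cgr-miR-31-5p, or 14.7, 19.5 and 17.1 CPM. Each lies at or under the level of 3 counts in its library, so the spread between them covers steps of 1 count. All 3 were below all 3 cell libraries, and the mean was 17.8-fold lower than in cells, where 58.7% of entries did not overlap. The median log2 change of all entries tested was -5.23, and the log2 ratio of means of cgr-miR-31-5p was -4.15. The pooled level was 16.9 CPM (95% Poisson interval 7.28 to 33.2), and the cells' mean was 18.0 times that (9.15 to 41.8). At the mean level of the cells, 144 counts would have been found where there were 8. The size of this ratio rests on the scaling: it was 2.24-fold lower with size factors (RLE) and 1.51-fold lower with the authors' library sizes. Against ammonia MPs the mean in exosomes was 18.1-fold lower with overlapping libraries, and 1.85-fold higher without MP replicate 3. In that comparison 14.8% of entries did not overlap.

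Between the stressed cultures, which shared a kit and a pool, the mean of cgr-miR-31-5p in cells was 2.98-fold higher under osmotic stress than under ammonia. The libraries overlapped, since osmotic replicate 3 at 407 CPM lay below ammonia replicate 1 at 446 CPM. For these cells 24.7% of entries did not overlap. The let-7 entries took 44.8% to 75.6% of the counts in the stressed libraries and 7.34% to 26.6% in the standard ones. With them left out of the totals, the level was 1955 CPM in osmotic cells and 972 CPM in ammonia cells, 2.01-fold apart. In MPs the level was at least 254-fold lower under osmotic stress, with a tie at 0 between the osmotic libraries and ammonia replicate 2, and at least 7.59-fold lower without ammonia MP replicate 3. For MPs 10.5% of entries did not overlap. In exosomes the mean was 2.58-fold higher under osmotic stress with overlapping libraries, and 2.72-fold lower without osmotic exosome replicate 2. It was also lower with size factors (1.10-fold) and with the authors' library sizes (1.58-fold). For exosomes 7.53% of entries did not overlap.

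The entries whose pattern was most like that of cgr-miR-31-5p were ranked by Pearson's r of log2(CPM + 1) over the 18 stressed libraries, among 250 entries of at least 50 CPM in any stressed group. mmu-let-7a-1-3p came first (r = 0.93), followed by cgr-miR-350-3p (0.93), cgr-miR-100-5p (0.91), hsa-miR-23b-3p (0.90) and cgr-miR-107 (0.85). These values describe libraries that share fractions and depth. In each of the 5, as in cgr-miR-31-5p, every stressed vesicle library other than ammonia MP replicate 3 lay below every stressed cell library. Within the 6 stressed cell libraries the same 5 entries had r of -0.32, 0.42, 0.20, 0.53 and -0.45, and none was among the first 10. In the 9 standard libraries their r was 0.01, -0.44, 0.63, -0.90 and 0.19, again with 0 of 5 among the first 10. Over the 12 stressed vesicle libraries alone all 5 stayed among the first 10.

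The ammonia MPs were among the libraries that chose these entries, so their values there are given as a description only. mmu-let-7a-1-3p was at 0.674, 0 and 347 CPM in replicates 1 to 3, and cgr-miR-107, known as a regulator of metabolic genes, at 1.35, 0 and 337 CPM. cgr-miR-350-3p was at 11.1, 0 and 311 CPM and cgr-miR-100-5p, a miRNA known for targeting MTOR, at 1.35, 0.510 and 343 CPM. hsa-miR-23b-3p, made from a cluster with miR-27b and miR-24, was at 229, 4.59 and 1148 CPM. In all 5, as in cgr-miR-31-5p, replicate 3 was the highest and replicate 2 the lowest, an order found in 38 (15.2%) of the 250 entries compared. In osmotic MPs 3 of them, cgr-miR-350-3p, cgr-miR-100-5p and hsa-miR-23b-3p, held a few counts, between 1 and 8 in a library that held any. Entries of the same miRNAs under other species names did not all share this. cgr-miR-23b-3p averaged 2765 CPM in osmotic MPs against 178 CPM in osmotic cells, and mmu-miR-100-5p 437 against 661 CPM. mmu-miR-350-3p (0 against 242 CPM) and mmu-miR-107-3p (0.343 against 116 CPM) did share it. Without ammonia MP replicate 3, 4 of the 5 stayed among the first 10 and cgr-miR-107 did not.

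**Figure D3:**
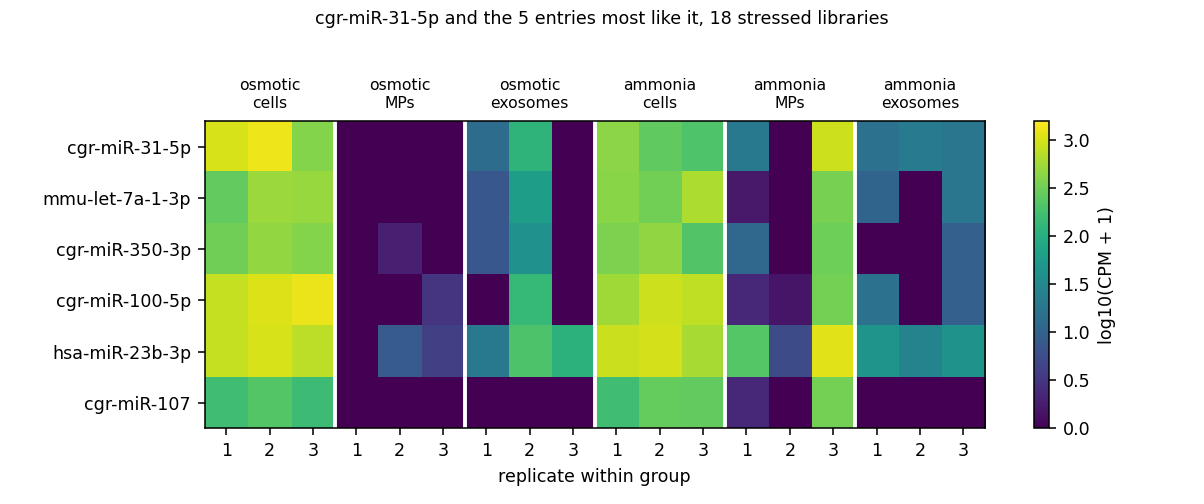
Level of cgr-miR-31-5p and of the 5 entries most like it in the 18 stressed libraries, as log10(CPM + 1), with libraries grouped by culture and fraction. Colour runs from 0 (dark) to high (yellow). Ammonia MP replicate 3 is bright in all 6 rows (311 to 1148 CPM), while MP replicate 2 is dark in all of them (0 to 4.59 CPM).

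The human-named entry hsa-miR-31-5p was counted in every cell library and gave 9 counts in the stressed vesicles. Its mean level was 33.2 ± 10.6 CPM in standard cells, 64.0 ± 15.8 CPM in standard MPs, 128 ± 6.52 CPM in standard exosomes, 136 ± 48.6 CPM in osmotic cells and 103 ± 44.6 CPM in ammonia cells. These 9 counts stood beside 2425 counts of both 5p entries. Ammonia MP replicate 3 alone gave 7 of the 9 and 2352 of the 2425, so this low share is mostly that of 1 library. The 1 count of either 5p entry in osmotic MPs was of hsa-miR-31-5p. In the stressed cells it made 5367 of 34098 counts. As a share of both 5p entries it was 12.8%, 13.9% and 10.3% in standard cells, 18.3%, 15.8% and 21.8% in standard MPs, and 28.2%, 18.9% and 13.8% in standard exosomes. MPs and cells of the standard culture did not overlap in this share.

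The share was chosen after the data were seen and its total holds the counts of cgr-miR-31-5p, so its differences are given without a test. In the mean, standard MPs were 6.34 points above standard cells, whose shares rest on 4 to 6 counts of hsa-miR-31-5p per library. Standard exosomes were 7.98 points above cells, with overlap, and 4.04 points above without exosome replicate 1. Their mean was 1.64 points above that of MPs, with overlap, and turned to -2.30 points without exosome replicate 1. Osmotic cells had shares of 12.6%, 12.1% and 17.1%, and ammonia cells 12.3%, 27.2% and 42.2%. Osmotic cells differed from ammonia cells by -13.3 points, with overlap, and by -5.79 points without ammonia cells replicate 3. The ammonia cell libraries thus differed among themselves more than the culture means did. In ammonia MP replicate 3, hsa-miR-31-5p made 7 of 2352 counts, or 0.298% (95% exact binomial interval 0.120 to 0.612), far below the 12.1% to 42.2% of the stressed cell libraries. In ammonia MP replicate 1 it made 0 of 55 (0 to 6.49%).

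**Figure D4:**
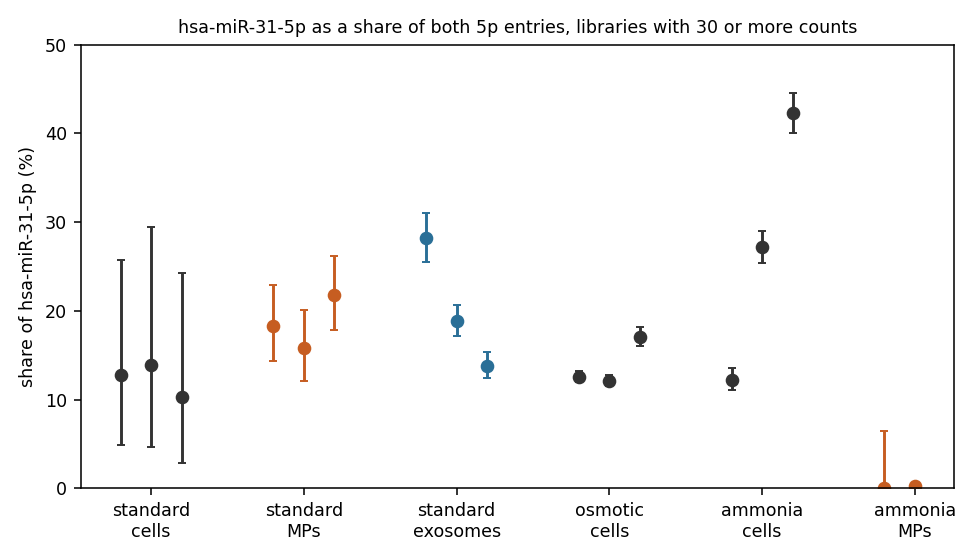
hsa-miR-31-5p as a percentage of the counts of both miR-31-5p entries, for libraries with at least 30 such counts. Points are libraries and bars are 95% exact binomial intervals, which cover counting error only. Ammonia cells spread from 12.3% to 42.2%, and the ammonia MP libraries lie at 0% and 0.298%.

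The passenger strand was rare. cgr-miR-31-3p gave 1 count in standard cells (replicate 2), 2 and 4 counts in standard MPs (replicates 1 and 2), 5 in standard exosomes (replicate 2) and 1 in osmotic cells (replicate 1). All the other counts, 116, were in ammonia cells replicate 2, where they made 16.95 CPM and 6.11% of the counts of both hamster miR-31 arms. In the other ammonia cell libraries it was at 0, with limits of 0.520 and 0.573 CPM. That replicate held cgr-miR-31-5p at 261 CPM, between the other ammonia cell libraries. No stressed vesicle library held a count of either 3p entry. hsa-miR-31-3p gave 1 count in standard cells and 2 in standard MPs. No 3p entry had enough counts to be tested.

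miR-31 was read beside 14 other miRNAs known from work on tumour cell invasion. Of these, 9 had counts and 5 were tested in the standard culture. Between standard exosomes and cells 3 of the 5 were called lower in exosomes and 0 were called higher. In edgeR's quasi-likelihood test with Benjamini-Hochberg adjustment over all entries, 51.6% of entries were called (26.8% higher and 24.8% lower). cgr-miR-146a went from 2.21 ± 3.84 CPM in cells, from 1 count, to 20.1 ± 6.07 CPM in exosomes and was not called (log2 change 2.97 ± 1.21, adjusted p = 0.0525). cgr-miR-21-5p, known for repressing PDCD4, went from 142805 ± 15503 CPM in cells to 49480.2 ± 11778 CPM in exosomes, a log2 change of -1.73 ± 0.25 (SE; adjusted p = 6.37e-05). mmu-miR-203-3p, known for promoting differentiation of mouse epidermis, went from 443 ± 132 CPM to 239.9 ± 27.7 CPM, a change of -1.07 ± 0.26 (adjusted p = 0.00380). cgr-miR-221-3p changed by -0.69 ± 0.26 (adjusted p = 0.0385), a call lost without any of 4 libraries (cells replicates 1 and 2, exosomes replicates 2 and 3), with library size alone and with no filter. The median log2 change of the 5 was -0.69 against 0.09 for all entries.

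Between standard MPs and cells 1 of the 5 fell, cgr-miR-221-3p with a log2 change of -1.46 ± 0.26 (adjusted p = 9.66e-04), with 31.3% of entries called (15.7% in each direction) and medians of -0.21 for the list and 0.07 for all. Between standard exosomes and MPs, cgr-miR-21-5p (-1.47 ± 0.25, adjusted p = 9.13e-04) and mmu-miR-203-3p (-0.86 ± 0.25, adjusted p = 0.0189) fell, and cgr-miR-221-3p rose (0.77 ± 0.25, adjusted p = 0.0316). There 29.6% of entries were called (13.7% higher and 16% lower), and the medians were -0.54 and 0.01. The call of mmu-miR-203-3p was lost without MP replicate 3, exosome replicate 1 or exosome replicate 3, and that of cgr-miR-221-3p without any MP library or exosome replicate 1 or 2. cgr-miR-10b-5p and cgr-miR-146a, the other members tested, passed the test in none of these comparisons.

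In the stressed cultures 4 members were tested, and mmu-miR-203-3p, like cgr-miR-31-5p, had no count in osmotic MPs. It was at 0 in osmotic MPs against 257 ± 160 CPM in osmotic cells (adjusted p = 0.00847), where 51.5% of entries were called (3.01% higher and 48.5% lower) and the list's median log2 change was 0.10 against -7.05 for all. The call was lost without osmotic MP replicate 2 and with no filter. In ammonia MPs it gave 1 count, 0.112 ± 0.195 CPM, against 85.8 ± 33.5 CPM in ammonia cells (adjusted p = 0.00492, lost with no filter), where 32.5% of entries were called (1.51% higher and 31% lower) and the medians were -0.28 and -1.43. In exosomes it gave 1 count in each stressed culture and passed no test. mmu-miR-203-3p passed the filter only through its 6523 counts in osmotic cells and 1551 in ammonia cells. A lower level in the vesicles was thus set in advance, and its calls here are given as a description only. cgr-miR-221-3p fell in ammonia exosomes, at 77.2 ± 68.0 CPM against 4020.2 ± 505 CPM in cells (log2 change -5.49 ± 1.65, adjusted p = 0.0444), with 9.04% of entries called (1.20% higher and 7.83% lower) and medians of -2.73 and -5.23. That call was lost without any 1 of the 6 libraries, with size factors (RLE), with no filter, with DESeq2 (adjusted p = 0.0634) and with replicate number as a block. In osmotic cells cgr-miR-21-5p, cgr-miR-10b-5p and cgr-miR-221-3p averaged 32564, 5992 and 3079 CPM. The medians for all entries were not matched to the list for abundance, so the gaps between these medians show no trait of the list.

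No list member passed the test in the other 6 comparisons of stressed libraries. The share of all entries called was 2.41% for osmotic exosomes against MPs (2.11% higher and 0.301% lower). It was 0.301% for ammonia exosomes against MPs, all of it lower, and 19.3% for osmotic against ammonia MPs (3.92% higher and 15.4% lower). In edgeR 0 entries were called in the remaining 3. For osmotic exosomes against cells, 79 entries had an unadjusted p under 0.05 and DESeq2 called 18, for osmotic against ammonia cells these were 13 and 0, and for osmotic against ammonia exosomes 61 and 34. Members that were not tested held few counts: 138 for cgr-miR-200c and 13 for cgr-miR-205, miRNAs that keep cells epithelial, and 1 each for cgr-miR-206 and mmu-miR-335-5p. cgr-miR-34a, hsa-miR-373-3p and hsa-miR-520c-3p were at 0. For miR-126-3p and miR-145-5p no entry was found under the names looked up, so they were not analysed here.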

How the data were processed

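Small RNA was sequenced from cells, MPs and exosomes of CHO-K1 in 3 cultures, with total RNA from a miRNeasy micro kit, per the labels' protocols. The separation of the vesicles and the counting tool were not given in the sources used here. Libraries were made with NextFlex Combo-Seq (standard) or TruSeq Small RNA (stressed), per the labels' protocols. Per the submitters' processing notes, the tools included FastQC 0.10.1 and cutadapt 2.8, and the builds were GRCm38, Rnor_6.0 and GRCh38. The deposited counts are whole numbers of reads for each mature miRNA, named by species. Grouping by mature form, and trimming and length limits in the stressed libraries, are stated per the file headers. A normalised signal that the authors deposited as CPM equals the count over an effective library size (largest relative deviation 7.43e-10). It served only as an alternative scaling. The 54 columns of per-sample values in the authors' expression table were not used.

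CPM here is the count over the library's summed count, times 1000000. Ratios are of mean CPM. Against a group at 0, a bound uses 3 counts over the group's summed total. Poisson and exact binomial intervals are at 95% and cover counting error only (the reads carry no stated molecular identifiers, so copies of 1 molecule may be counted more than once). edgeR 4.0.16 (R 4.3.3) fitted the 9 standard and the 18 stressed libraries apart, with TMM, filterByExpr and the quasi-likelihood test, adjusted by Benjamini-Hochberg over 351 and 332 entries and called under 0.05. The fits were also run on simulated counts with the same spread for every entry. That setting says little about the stressed libraries, whose replicates differ widely. DESeq2 1.42.0, other scalings, no filter, a replicate term and leaving out each library were alternatives. No pair of libraries agreed within sampling noise. Same-numbered libraries were compared over 27 pairs: 3 had a correlation of deviations over 0.1 (-0.19 to 0.22), so the numbers were not taken to pair libraries.

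The miRNA, the lists and the tests were chosen with earlier results of these data known. Named entries are the miR-31 entries with counts, the invasion list, the 5 most alike entries, and the 5 highest in osmotic cells at 0 in osmotic MPs.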

Additional observations from a re-analysis of the deposited data

Results flagged for a closer look

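The ratio of exosomes to cells for cgr-miR-31-5p went in opposite directions in the standard and the stressed cultures. In the standard culture all 3 exosome libraries were above all 3 cell libraries (2.31-fold in the mean). In the osmotic culture all 3 were below (20.5-fold), and in the ammonia culture all 3 were below as well (17.8-fold). Over all entries tested, the median log2 change of exosomes against cells was 0.09 in the standard, -3.75 in the osmotic and -5.23 in the ammonia culture. The log2 ratio of means of cgr-miR-31-5p was 1.21, -4.36 and -4.15, so its lower level in stressed exosomes was common among entries. The difference between the ratios of cgr-miR-31-5p was not tested, and culture cannot be told apart from kit and pool. The stressed exosome values rest on 8 counts in each culture.

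cgr-miR-31-3p, the passenger strand, stood at 17 CPM (116 counts) in ammonia cells replicate 2 and at 0 in the other ammonia cell libraries, where the level of 3 counts was 0.520 and 0.573 CPM. It was flagged because the entry is outside the main measurement and lay above the level that a count of 0 allows.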

How the results depend on the processing

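For the ratios of cgr-miR-31-5p, 138 of 156 alternative values stayed within the spread between libraries. The direction turned in 10, some of them within that spread. All were in ammonia MPs against cells, ammonia exosomes against MPs, and osmotic against ammonia exosomes. Causes were not tested. The bound for osmotic MPs below cells was 403 with TMM, 342 with RLE, 411 with the authors' sizes, 408 to 946 leaving out 1 library, and 3042 (a value from 1 count) with both 5p entries summed. Osmotic exosomes were 13.7-fold to 144-fold below cells and at least 5.15-fold to 54.3-fold above MPs leaving out 1 library. Ammonia exosomes were 2.24-fold below cells with RLE and 1.51-fold with the authors' sizes, and below MPs 2.65-fold (RLE) and 2.30-fold (authors' sizes). By the mean difference of log2(CPM + 1), a ratio of geometric means that no pairing of replicates changes, they were 1.45-fold below MPs. Leaving out 1 library, that last ratio ran from 27.2-fold lower to a reversed 1.85-fold higher (without ammonia MP replicate 3). By the same mean difference of log2(CPM + 1), ammonia MPs were 11.1-fold below cells and osmotic MPs 26.1-fold below ammonia MPs. That 26.1 is set by the added 1 CPM and is not a bound. Leaving out 1 library, ammonia MPs ran from 1.53-fold above cells (without MP replicate 2) to 32.8-fold below (without MP replicate 3), and were 1.05-fold below without cells replicate 2. Osmotic MPs were then at least 7.59-fold to 381-fold below ammonia MPs. Osmotic against ammonia exosomes ran from 2.41-fold to 3.87-fold, and was 2.72-fold lower without osmotic exosome replicate 2. Without let-7 entries in the totals, levels in the standard culture were 314 CPM (cells) and 329.6 CPM (MPs). They were 1955 CPM in osmotic cells, and 972, 991 and 37.4 CPM in cells, MPs and exosomes under ammonia. With TMM they were 141, 168 and 21.3 CPM in standard cells, standard MPs and ammonia exosomes, 345 CPM in standard exosomes and 593 CPM in ammonia MPs. With both 5p entries summed they were 342 CPM in standard MPs and 19.98 CPM in ammonia exosomes. At a minimum of 200 CPM in cells, entries at 0 in all 3 libraries were 0% in standard exosomes, 8.90% (MPs) and 0.685% (exosomes) under osmotic stress, and 0% (MPs) and 3.70% (exosomes) under ammonia. Likeness turned to -0.32 (mmu-let-7a-1-3p) and -0.45 (cgr-miR-107) in the 6 stressed cell libraries, and to -0.44 (cgr-miR-350-3p) and -0.90 (hsa-miR-23b-3p) in the 9 standard libraries. Leaving-out runs for the share and the calls, and likeness in cells, in vesicles and without ammonia MP replicate 3, were chosen after seeing the data. Leaving out 1 library, the difference in share ran from 4.77 to 7.76 points (standard MPs and cells), 4.04 to 11.2 (exosomes and cells), -2.30 to 4.87 (exosomes and MPs) and -20.8 to -5.79 (osmotic and ammonia cells).

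Entries called, against 104 for standard exosomes and MPs, were 54 to 93 leaving out 1 library. Against 171 for osmotic MPs and cells they were 17 with no filter and 1 to 136 leaving out 1 library (1 without MP replicate 2). Against 0 for osmotic exosomes and cells they were 2 (RLE), 4 (no filter) and 18 (DESeq2). Against 8 for osmotic exosomes and MPs they were 32 (RLE), 16 (library size), 21 (no filter), 78 (DESeq2), 1 (replicate block) and 3 to 14. Against 108 for ammonia MPs and cells they were 7 (no filter) and 59 to 106. Against 30 for ammonia exosomes and cells they were 15 (RLE), 18 (no filter), 52 (DESeq2), 2 (replicate block) and 1 to 4. Against 1 for ammonia exosomes and MPs they were 15 (RLE), 0 (library size), 75 (DESeq2) and 0 to 10. Between osmotic and ammonia culture they were 1 against 0 in cells (replicate block), 0 against 64 in MPs (replicate block; 0 to 61 leaving out 1 library), and 5 (no filter), 34 (DESeq2) and 0 to 2 against 0 in exosomes. For list members that were called, 83 alternative values kept the call and 27 lost it. For those not called, 436 stayed so and 15 gained a call. The depth of stressed exosomes, where 1 count is worth up to 37.7 CPM, limits every value there.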

Other observations

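Of the other entries that were abundant in osmotic cells and at 0 in osmotic MPs, rno-miR-222-3p had its highest mean in ammonia MPs, at 397 ± 342 CPM (SD, n = 3), against 53.7 ± 22.7 CPM in ammonia cells. hsa-miR-7-5p was far higher in the standard culture, at 2213 ± 431 CPM in cells, 804 ± 35.6 CPM in MPs and 390.4 ± 39.5 CPM in exosomes, than the 305 ± 195 CPM of osmotic cells, in a comparison where culture and kit cannot be told apart. hsa-miR-12135 was at 0 in all standard libraries and at 207 ± 133 CPM in ammonia cells. These differences were not tested.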
